A study of Mus musculus with 20 samples.

Results

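The genes described here encode components of the Wnt/beta-catenin pathway, and their transcript levels were followed in macrophages that lacked Trem2, carried a Trem2 substitution or were wild type. They are beta-catenin itself (Ctnnb1), the receptors Lrp5, Lrp6 and Fzd7, the destruction complex genes Axin1, Apc, Gsk3a, Gsk3b and Csnk1a1, and the transcription factor Tcf7l2. They were taken by symbol, all 10 were found among the 51456 gene symbols of the deposited tables, and all 10 were among the 10843 genes that were tested because their mean reached 1 FPKQ. FPKQ is the authors' length-adjusted expression unit, whose definition the sources used here do not give.

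The cells were bone-marrow-derived macrophages from C57BL/6 mice aged 4 to 5 months, grown in 50 ng/ml CSF-1, the cytokine that turns marrow progenitors into macrophages, for 6 days. The groups were a Trem2 knockout labelled TREM2 5bp KO (KO, 5 libraries), a knock-in of the R47H substitution labelled TREM2 R47H KI (R47H, 5 libraries) and wild type (WT, 10 libraries). How the 2 alleles were made is not stated in the labels. The design text names 5 animals per genotype and wild-type littermates for each line, but the labels do not tie a WT library to a line. All 10 WT libraries were therefore the control of both mutants, so the KO and R47H comparisons share their controls.

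Without a Wnt signal, the scaffolds Axin1 and Apc hold beta-catenin beside the kinases casein kinase 1 and GSK3, which phosphorylate it and mark it for destruction. When a Wnt ligand binds a Frizzled receptor together with Lrp5 or Lrp6, this complex is disabled, and beta-catenin enters the nucleus and activates genes with TCF factors such as Tcf7l2. In macrophages and microglia, Trem2 signalling through Tyrobp is known to bear on beta-catenin stability and on survival. Most of this regulation acts on proteins, and the libraries measured poly-A RNA. They give no phosphorylation, stability or location of beta-catenin.

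The RefSeq promoter table for GRCm38.p6 held 5 of the 10 genes (Ctnnb1, Gsk3a, Gsk3b, Tcf7l2 and Fzd7), with 7 windows of 300 bases that run from 250 bases before to 50 bases after a start. Printed below are windows of 2 genes whose transcripts rose in KO (Ctnnb1 and Gsk3b), of the one that fell there (Fzd7), and of Gsk3a, the paralog of Gsk3b. Each is written 5′ to 3′ on the strand of its gene. They lie at chr9:120933150-120933449 (plus strand, the first of 2 windows listed for Ctnnb1), chr16:38088751-38089050 (plus, Gsk3b), chr1:59481897-59482196 (plus, Fzd7) and chr7:25237802-25238101 (minus, Gsk3a).
Ctnnb1: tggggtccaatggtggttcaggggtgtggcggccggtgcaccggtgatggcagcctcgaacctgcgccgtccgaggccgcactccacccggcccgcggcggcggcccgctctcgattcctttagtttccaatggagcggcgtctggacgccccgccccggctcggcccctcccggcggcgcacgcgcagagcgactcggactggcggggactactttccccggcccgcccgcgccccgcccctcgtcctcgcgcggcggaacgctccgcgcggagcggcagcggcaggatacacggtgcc
Gsk3b: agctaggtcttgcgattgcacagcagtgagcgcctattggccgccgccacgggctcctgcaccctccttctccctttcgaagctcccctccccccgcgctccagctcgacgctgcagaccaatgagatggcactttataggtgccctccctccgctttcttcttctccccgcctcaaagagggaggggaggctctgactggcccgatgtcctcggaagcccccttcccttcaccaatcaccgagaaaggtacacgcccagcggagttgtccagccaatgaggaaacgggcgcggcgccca
Fzd7: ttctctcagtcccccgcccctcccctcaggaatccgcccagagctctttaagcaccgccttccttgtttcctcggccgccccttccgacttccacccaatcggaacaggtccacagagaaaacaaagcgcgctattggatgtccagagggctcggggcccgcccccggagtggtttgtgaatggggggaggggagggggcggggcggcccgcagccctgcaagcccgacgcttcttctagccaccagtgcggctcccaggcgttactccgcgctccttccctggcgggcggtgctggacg
Gsk3a: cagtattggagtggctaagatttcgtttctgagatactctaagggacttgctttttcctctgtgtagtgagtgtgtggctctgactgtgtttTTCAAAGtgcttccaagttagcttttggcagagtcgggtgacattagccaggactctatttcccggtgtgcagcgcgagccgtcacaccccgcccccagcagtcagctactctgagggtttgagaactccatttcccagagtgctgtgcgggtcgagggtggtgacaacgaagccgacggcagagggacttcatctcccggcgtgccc
Capitals mark the only match, on either strand, to the TCF motif letters CTTTGAT or CTTTGAA. It is TTCAAAG, the minus-strand reading of CTTTGAA, 158 bases before the Gsk3a start. Of the 7 windows, 1 held a match. Over all 32851 promoters of the table, 3.73% held CTTTGAT, 5.14% held CTTTGAA and 8.65% held at least one of them. A match of letters is a description of these windows and not a binding site.

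The labels were checked first. Trem2 averaged 24.1 ± 0.435 FPKQ in KO, 652 ± 137 FPKQ in R47H and 806 ± 60.6 FPKQ in WT libraries (SD, n = 5, 5 and 10). All 8 macrophage markers, among them Csf1r and Adgre1, were at or above 1 FPKQ, whereas 0 of 6 T cell and 0 of 7 stromal markers were. The summed macrophage level, most of it Lyz2, spanned 32452 to 35218 FPKQ in KO, 26406 to 29495 in R47H and 23155 to 26582 in WT. The 8 markers did not move together: 4 rose and 3 fell in KO, and 4 rose and 2 fell in R47H. Of all tested genes 28.2% rose and 23.7% fell in KO, and 13.4% rose and 7.83% fell in R47H. The markers that fell in KO were Cd14 (difference -1.26, adjusted p = 2.11e-10), Itgam (-0.55, adjusted p = 1.03e-05) and Fcgr1 (-0.43, adjusted p = 0.0102, limma). The summed stromal level was 0.737 to 1.89 FPKQ in KO, 0.0895 to 0.833 in R47H and 0.187 to 0.428 in WT, so every KO sum lay above every WT sum. Its leading marker Dcn averaged 0.719 FPKQ in KO, 0.183 in R47H and 0.106 in WT. Of 10 neutrophil markers 4 were detected at that level, summing to 99.4 to 130.2 FPKQ in KO, 86.8 to 151 in R47H and 71.0 to 107 in WT. Of 4 endothelial markers only Kdr reached 1 FPKQ, and the 4 summed to 4.09 to 5.68 FPKQ in KO, 3.85 to 4.58 in R47H and 2.18 to 3.84 in WT. Their part in the results was not tested, and in bulk RNA fewer cells of a type cannot be told apart from less RNA per cell. A level of 1 FPKQ in a gene of 2 kb stood for 51.7 ± 3.89 fragments in KO, 52.7 ± 3.79 in R47H and 61.2 ± 5.19 in WT, as estimated from the spacing of low values.

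In WT macrophages the genes spanned a wide range of abundance. Ctnnb1 was the most abundant at 150.1 ± 7.22 FPKQ (SD, n = 10 for all WT values here), followed by Csnk1a1 at 77.2 ± 2.73, Gsk3a at 43.3 ± 1.98, Axin1 at 24.1 ± 1.07 and Gsk3b at 15.7 ± 1.38 FPKQ. Fzd7, Lrp5 and Lrp6 followed at 11.5 ± 1.28, 10.2 ± 1.24 and 9.85 ± 0.922 FPKQ, with overlapping ranges between each pair of neighbours. Apc lay at 8.21 ± 1.04 FPKQ and Tcf7l2 at 2.91 ± 0.657 FPKQ. Against the tested genes, these WT levels ran from the 95.1st percentile for Ctnnb1 to the 13.9th for Tcf7l2.

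**Figure D1:**
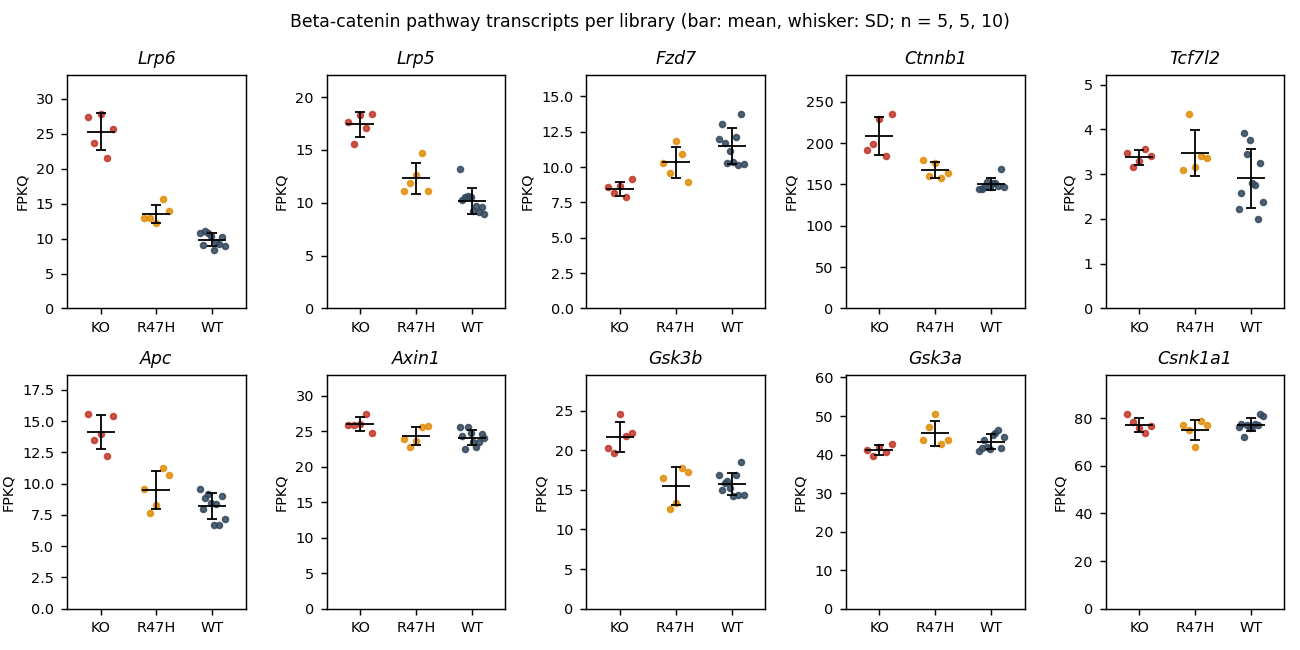
Level of each of the 10 pathway genes in FPKQ (vertical axes, from 0) in the 5 KO, 5 R47H and 10 WT libraries, one point a library, with a bar at the group mean and whiskers of 1 SD. The 5 KO points lie above all WT points for Ctnnb1, Gsk3b, Apc, Lrp5 and Lrp6 and below them for Fzd7.

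In KO macrophages 6 of the 10 genes rose and 1 fell, by limma over all tested genes with a Benjamini-Hochberg adjusted p under 0.05. Those that rose were Lrp6, Lrp5, Apc, Ctnnb1, Gsk3b and Axin1, and Fzd7 fell. In the same comparison 28.2% of the 10843 genes rose and 23.7% fell. For 5 of the 10 genes every KO library lay above every WT library, against 15.4% of all tested genes, and for 1 every KO library lay below, against 13.3%. The median difference of the 10 genes was 0.31 on the log2(FPKQ + 1) scale, on which all differences below are given, and that of all tested genes was 0.01.

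In R47H macrophages 3 of the 10 genes rose (Lrp6, Lrp5 and Ctnnb1), beside 13.4% of all tested genes. None of the 10 fell by limma, also at an unadjusted p under 0.05, beside 7.83% of all genes, and for none did the R47H libraries all lie below WT, which 3.14% of all genes did. Lrp6 was the only one of the 10 whose R47H libraries all lay above the WT libraries, which 3.77% of all tested genes did. The median difference was 0.11 for the 10 genes and 0.04 for all tested genes.

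Set directly against KO, 5 of the 10 genes were lower in R47H (Ctnnb1, Gsk3b, Apc, Lrp5 and Lrp6) and 2 were higher (Gsk3a and Fzd7), beside 18.0% and 22.8% of all tested genes. Every R47H library lay below every KO library for those 5 genes, against 10.8% of all genes, and above them for Gsk3a, against 12.3%. The median difference was -0.20 for the 10 genes and 0.03 for all genes. Each line had its own wild-type littermates, so a difference between the lines cannot be told apart from one between the alleles here. For the 5 lower genes, the mean of WT Rep1 to Rep5 and that of WT Rep6 to Rep10 were as follows. They were 11.0 and 9.31 FPKQ for Lrp5, 10.4 and 9.26 for Lrp6, 8.82 and 7.60 for Apc, 15.8 and 15.7 for Gsk3b, and 147 and 153 for Ctnnb1.

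**Figure D2:**
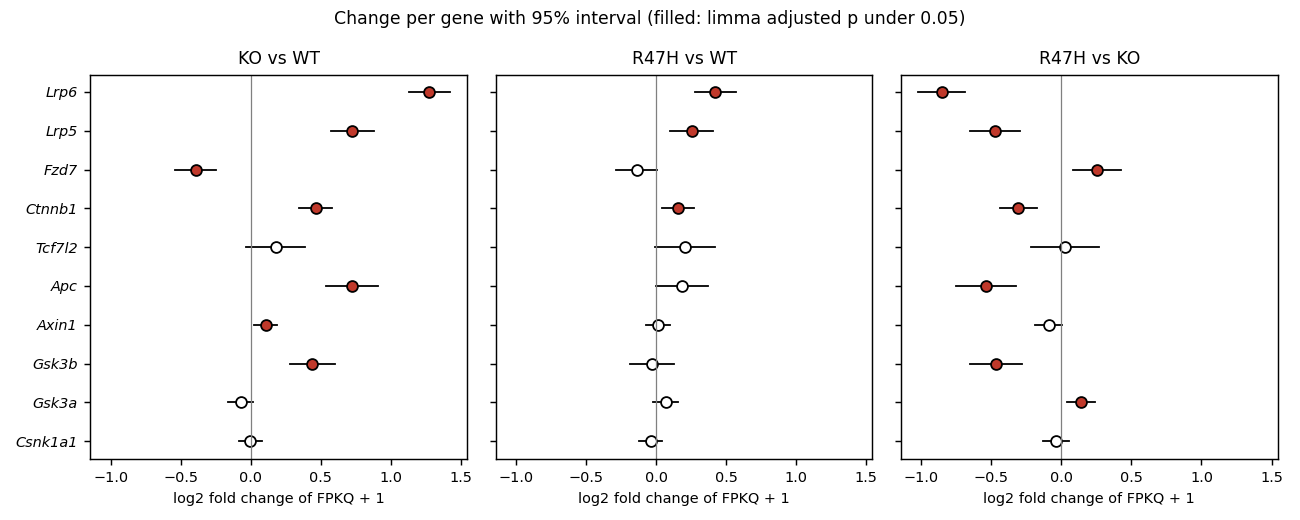
Difference on the log2(FPKQ + 1) scale of each of the 10 genes for KO against WT, R47H against WT and R47H against KO, with 95% confidence intervals from limma (lines) and filled points for an adjusted p under 0.05. Lrp6 has the highest value against WT in both mutants, 1.28 in KO and 0.42 in R47H.

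Among the 3 receptor genes of the set, Lrp6 had the largest difference from WT in each mutant. Lrp6 (chr6:134446476-134566965, minus strand, GRCm38) and Lrp5 (chr19:3584828-3686564, minus strand) encode the single-pass co-receptors that bind Axin1 when Wnt is present. Lrp6 had 27.5, 23.7, 27.9, 21.6 and 25.7 FPKQ in KO Rep1 to Rep5, and 12.9, 12.9, 12.2, 15.6 and 14.01 FPKQ in R47H Rep1 to Rep5, against 8.36 to 11.04 FPKQ (median 9.87) in the 10 WT libraries. The 3 groups did not overlap. The level of Lrp6 was 2.57-fold that of WT in KO and 1.37-fold in R47H. The differences were 1.28 in KO (SE 0.07, adjusted p = 2.28e-12) and 0.42 in R47H (SE 0.07, adjusted p = 0.000153), and R47H lay 0.85 below KO (difference -0.85, SE 0.08, adjusted p = 8.02e-08, limma). The calls for Lrp6 held in each of the 26 alternatives run for KO, the 27 for R47H against WT and the 20 for R47H against KO.

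Lrp5 had 17.6, 15.5, 18.3, 17.1 and 18.4 FPKQ in KO Rep1 to Rep5, and 11.1, 11.9, 12.7, 14.7 and 11.2 FPKQ in R47H Rep1 to Rep5, against 8.93 to 13.2 FPKQ (median 9.98) in WT. The KO libraries lay above all others, whereas R47H and WT overlapped and only R47H Rep4 exceeded every WT library. The difference was 0.73 in KO (SE 0.07, adjusted p = 4.00e-08), 0.25 in R47H (SE 0.07, adjusted p = 0.0177) and -0.47 for R47H against KO (SE 0.09, adjusted p = 0.000213, limma). The WT libraries were themselves uneven in Lrp5, with 10.3 to 13.2 FPKQ in WT Rep1 to Rep5 and 8.93 to 9.69 FPKQ in WT Rep6 to Rep10. When only WT Rep1 to Rep5 served as control, R47H differed by 0.14 (adjusted p = 0.235), and without R47H Rep4 its adjusted p was 0.0682. With equal library sums it was also 0.14 (adjusted p = 0.252).

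Fzd7, a seven-pass Frizzled receptor gene of a single exon (chr1:59482424-59486955, plus strand), moved the other way. Its level was 8.55, 8.14, 8.65, 7.87 and 9.16 FPKQ in KO Rep1 to Rep5 and 10.3, 9.59, 11.8, 10.9 and 8.98 FPKQ in R47H Rep1 to Rep5, against 10.1 to 13.8 FPKQ (median 11.4) in WT. All KO libraries lay below all WT libraries, and R47H spread across both. The difference was -0.39 in KO (SE 0.07, adjusted p = 8.25e-05), -0.14 in R47H (95% CI -0.29 to 0.01, adjusted p = 0.175) and 0.25 for R47H against KO (SE 0.08, adjusted p = 0.0176, limma). Without R47H Rep3 the adjusted p for R47H against KO was 0.0587.

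Ctnnb1 (chr9:120929216-120960507, plus strand) encodes beta-catenin, the signal carrier of the pathway and also a link between cadherins and the actin skeleton. It had 192, 198, 229, 185 and 236 FPKQ in KO Rep1 to Rep5 and 179, 161, 176, 158 and 163 FPKQ in R47H Rep1 to Rep5, against 144 to 169 FPKQ (median 147) in WT. Every KO library exceeded every R47H and WT library, and 2 R47H libraries exceeded all WT libraries. The level was 1.39-fold that of WT in KO (difference 0.46, SE 0.06, adjusted p = 3.78e-07) and 1.11-fold in R47H (difference 0.16, SE 0.06, adjusted p = 0.0484, limma). R47H lay below KO with a difference of -0.31 (SE 0.06, adjusted p = 0.000747). The R47H rise passed in only 6 of 27 alternatives. It was 0.03 with equal library sums (adjusted p = 0.733) and 0.04 after quantile normalization (adjusted p = 0.725). Leaving out any one of WT Rep1 to Rep8, WT Rep10, R47H Rep1, R47H Rep2, R47H Rep3 or R47H Rep5 took its adjusted p to between 0.0580 and 0.126. The KO call and the R47H against KO call of Ctnnb1, Gsk3b, Apc, Lrp5 and Lrp6, and the KO call of Fzd7, held in each alternative run.

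Tcf7l2 (chr19:55741820-55933654, plus strand) encodes the TCF factor through which beta-catenin reaches DNA. It was the least abundant of the 10 genes, with 3.46, 3.15, 3.29, 3.56 and 3.40 FPKQ in KO Rep1 to Rep5, 3.10, 4.35, 3.16, 3.40 and 3.36 FPKQ in R47H Rep1 to Rep5, and 2.00 to 3.93 FPKQ (median 2.78) in WT. The groups overlapped throughout. The difference was 0.18 in KO (95% CI -0.03 to 0.39, adjusted p = 0.152), 0.21 in R47H (-0.01 to 0.42, adjusted p = 0.164) and 0.03 for R47H against KO (-0.22 to 0.27, adjusted p = 0.869, limma). Against WT Rep6 to Rep10 alone both mutants passed, with 0.27 in KO (adjusted p = 0.0221) and 0.30 in R47H (adjusted p = 0.0334). If all its fragments came from the longest transcript, 239.6 to 431 fragments a library lay behind these values.

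In the destruction complex the 2 scaffolds differed. Apc (chr18:34220924-34322552, plus strand) is the large tumour suppressor scaffold, and it had 15.6, 13.5, 13.96, 12.2 and 15.4 FPKQ in KO Rep1 to Rep5 and 9.555, 7.66, 8.32, 11.3 and 10.7 FPKQ in R47H Rep1 to Rep5, against 6.68 to 9.545 FPKQ (median 8.42) in WT. KO lay above all other libraries, and 3 R47H libraries lay above all WT libraries. The level was 1.72-fold that of WT in KO (difference 0.72, SE 0.09, adjusted p = 6.86e-07). In R47H the difference from WT was 0.18 (95% CI -0.00 to 0.37, adjusted p = 0.154), and from KO it was -0.54 (SE 0.10, adjusted p = 0.000378, limma).

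Axin1 (chr17:26138688-26195811, plus strand), the scaffold that Lrp5 and Lrp6 recruit, had 24.8 to 27.5 FPKQ in KO, 22.9 to 25.8 FPKQ in R47H and 22.5 to 25.6 FPKQ in WT. Of the KO libraries 4 of 5 lay above all WT libraries, yet the difference was small, at 0.11 (SE 0.04, adjusted p = 0.0339, limma). Only 13 of 26 alternatives kept the call. The adjusted p was 0.728 with equal library sums (difference 0.03) and 0.202 against WT Rep1 to Rep5, and it was between 0.0501 and 0.108 without KO Rep1, KO Rep2, KO Rep3, KO Rep4, WT Rep3, WT Rep6, WT Rep7 or WT Rep8. In R47H the difference was 0.01 from WT (95% CI -0.07 to 0.10) and -0.09 from KO (-0.19 to 0.01).

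The kinase genes Gsk3b (chr16:38089001-38246084, plus strand) and Gsk3a (chr7:25228258-25237851, minus strand) encode the paralogous GSK3 enzymes. Gsk3b had 20.2, 19.7, 24.6, 21.8 and 22.1 FPKQ in KO Rep1 to Rep5 and 16.5, 12.6, 13.4, 17.7 and 17.3 FPKQ in R47H Rep1 to Rep5, against 14.2 to 18.5 FPKQ (median 15.5) in WT. KO lay above all other libraries, and R47H and WT overlapped. The difference was 0.44 in KO (SE 0.08, adjusted p = 5.71e-05), -0.03 in R47H (95% CI -0.19 to 0.13, adjusted p = 0.835) and -0.47 for R47H against KO (SE 0.09, adjusted p = 0.000313, limma).

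Gsk3a had 41.1, 39.6, 41.9, 40.6 and 42.7 FPKQ in KO Rep1 to Rep5 and 43.7, 47.04, 50.6, 42.8 and 43.7 FPKQ in R47H Rep1 to Rep5, against 40.9 to 46.4 FPKQ (median 42.8) in WT. Neither mutant passed against WT, with -0.07 in KO (95% CI -0.16 to 0.02, adjusted p = 0.180) and 0.07 in R47H (-0.02 to 0.16, adjusted p = 0.267). R47H lay 0.14 above KO (SE 0.05, adjusted p = 0.0286, limma), a call kept in 9 of 20 alternatives. Its adjusted p was 0.0521 to 0.0955 without KO Rep2, KO Rep4, R47H Rep2 or R47H Rep3. Exons of Gsk3a share 820 bp with the antisense gene 9130221H12Rik, whose mean level was 15.0% of that of Gsk3a. Whether counting used the strand is not stated, so reads of the pair may not be separable. Csnk1a1 (chr18:61555274-61590061, plus strand), the casein kinase that primes beta-catenin for GSK3, had 73.5 to 81.6 FPKQ in KO, 68.0 to 78.6 in R47H and 71.9 to 81.8 in WT. Its difference was -0.00 in KO (95% CI -0.08 to 0.08) and -0.04 in R47H (-0.12 to 0.04).

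Ratios within a library do not depend on how libraries were scaled, so the 2 paralog pairs were compared in that form, with 2-sided exact permutation tests adjusted over the 6 ratio tests. They are not free of transcript length, which is treated below. The longest transcript has 8303 bp for Gsk3b and 2260 bp for Gsk3a. The ratio of Gsk3b to Gsk3a had a geometric mean of 0.525 in KO (0.492 to 0.587), 0.338 in R47H (0.265 to 0.414) and 0.362 in WT (0.309 to 0.442). KO exceeded WT by 0.54 in log2 ratio (SE 0.07, adjusted exact p = 0.000999). R47H lay -0.64 from KO (adjusted exact p = 0.0119) and -0.10 from WT (adjusted exact p = 0.416). The ratio of Lrp6 to Lrp5 was 1.45 in KO (1.26 to 1.56), 1.10 in R47H (0.966 to 1.26) and 0.971 in WT (0.824 to 1.06). Its log2 difference was 0.58 for KO against WT (adjusted exact p = 0.000999), 0.18 for R47H against WT (adjusted exact p = 0.0228) and -0.40 for R47H against KO (adjusted exact p = 0.0119). The R47H difference from WT was 0.16 without R47H Rep1 (adjusted exact p = 0.0647) and 0.14 without R47H Rep5 (adjusted exact p = 0.0851). The smallest p the permutations can give was 0.000333 for KO against WT and 0.00794 for R47H against KO, and both ratios reached it in both comparisons.

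**Figure D3:**
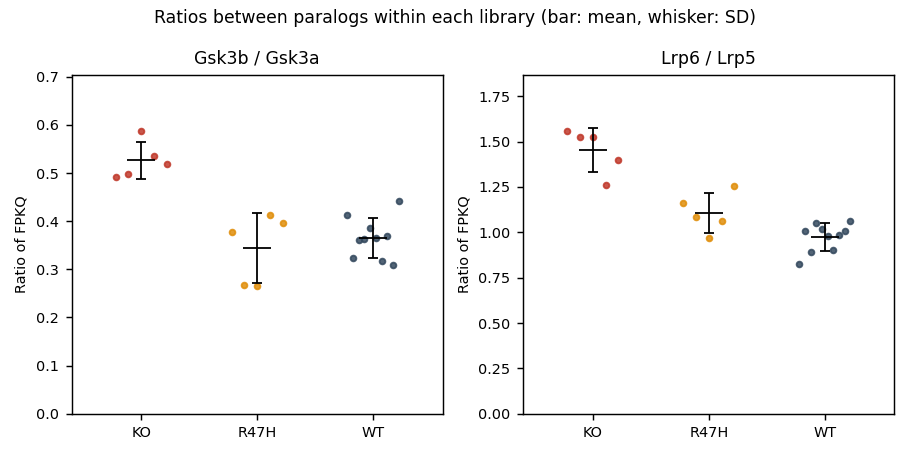
Ratio of Gsk3b to Gsk3a and of Lrp6 to Lrp5 (vertical axes, from 0) in the KO, R47H and WT libraries, one point a library, with a bar at the mean and whiskers of 1 SD. All 5 KO libraries lie above all WT libraries in both panels, from 0.492 for the first ratio and from 1.26 for the second.

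Transcript length moved with some of these results. For each library a length index was computed as the median log2 deviation of genes with a longest transcript of at least 4676 bp, minus that of genes with at most 2112 bp, over 10647 genes without the 10. It ran from 0.0679 to 0.296 in KO, from -0.287 to 0.162 in R47H and from -0.130 to 0.146 in WT. R47H Rep2 and Rep3 had the lowest values, -0.287 and -0.279, and they also had the lowest Gsk3b and the highest Gsk3a levels of their group. Between KO and WT, long genes had a median difference of 0.11 and short genes of -0.07. For R47H against KO these medians were -0.10 and 0.13, and for R47H against WT they were 0.02 and 0.07. The longest transcripts among the 10 genes were those of Apc at 12811 bp, Lrp6 at 9368 bp, Lrp5 at 8893 bp and Gsk3b at 8303 bp. After each genotype was centred on its own mean, their Pearson r with the index was 0.868, 0.647, 0.311 and 0.884 in that order. For Gsk3a, of 2260 bp, it was -0.567.

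With the index as a covariate, an alternative chosen after seeing the data, the KO differences from WT were 1.16 for Lrp6, 0.67 for Lrp5, 0.53 for Apc, 0.43 for Ctnnb1 and -0.44 for Fzd7, and all 5 stayed called by limma. The KO difference of Gsk3b was 0.27 with the covariate (adjusted p = 9.11e-05), against 0.44 without it, and that of Axin1 was 0.07 (adjusted p = 0.155). For Gsk3a in KO it was -0.02 (adjusted p = 0.744), against -0.07 without the covariate. The paralog ratios were not fitted with the index, so the part of length in them was not tested. For R47H against KO, Gsk3b was at -0.25 (adjusted p = 0.00332) and Apc at -0.28 (adjusted p = 0.00534), both shrunk by more than 1.5 times, and Gsk3a was at 0.07 (adjusted p = 0.303), against 0.14 without the covariate. For R47H against WT the covariate raised Apc to 0.25 (adjusted p = 0.00120), and Lrp6 was 0.46, Lrp5 0.27 and Ctnnb1 0.17. Leaving out R47H Rep2 and Rep3, also chosen after seeing the data, gave 0.33 for Apc (adjusted p = 0.0227) and 0.13 for the log2 ratio of Gsk3b to Gsk3a in R47H against WT (adjusted exact p = 0.220), whose sign was negative with all libraries. In R47H against KO that log2 ratio was -0.41 without the 2 libraries (adjusted exact p = 0.0268), against -0.64 with them.

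**Figure D4:**
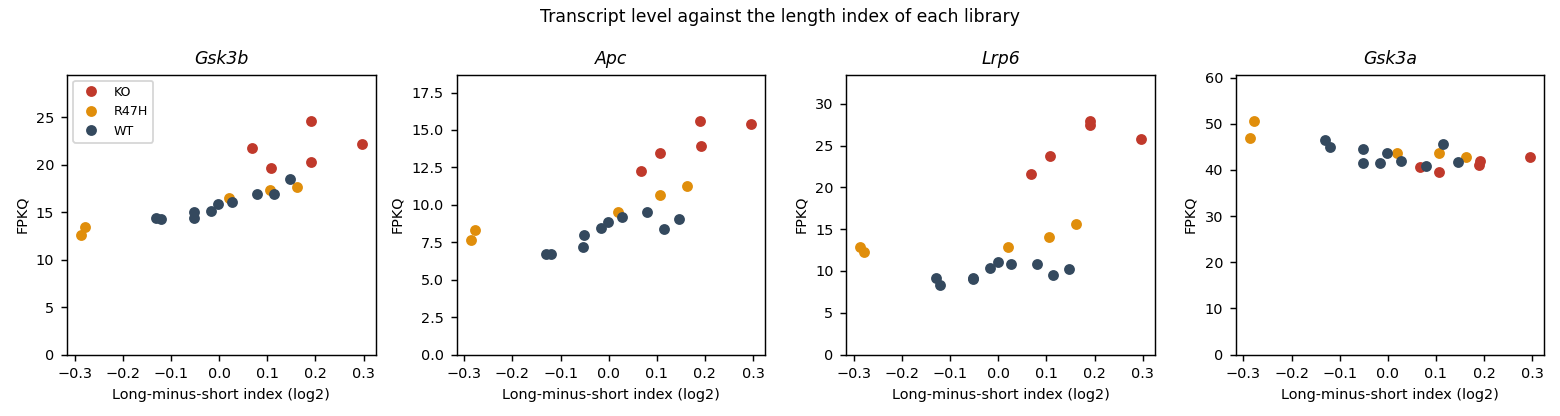
Level of Gsk3b, Apc, Lrp6 and Gsk3a in FPKQ (vertical axes, from 0) against the length index of the library (horizontal axis), one point a library, coloured by genotype. R47H Rep2 and Rep3 lie at the left end, at -0.287 and -0.279, and the KO libraries at 0.0679 or more.

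The rest of the pathway was read from lists of its components. None of the 19 Wnt ligand genes reached a mean of 1 FPKQ, 7 were listed at 0 in all 20 libraries, and 16 stayed at a mean under 0.1 FPKQ. The most abundant was Wnt6, at 0.436 FPKQ in KO, 0.554 in R47H and 0.598 in WT. Both secretion genes rose in KO, where 28.2% of all tested genes rose. Wls, the carrier that brings Wnt proteins to the surface, had 70.1 ± 6.20 FPKQ in KO, 59.2 ± 3.51 in R47H and 51.4 ± 3.08 in WT, a difference of 0.44 in KO (adjusted p = 4.66e-07) and 0.20 in R47H (adjusted p = 0.00877, limma). With equal library sums the R47H difference of Wls was 0.08 (adjusted p = 0.409). Porcn, which acylates Wnt proteins, had 1.85 ± 0.297 FPKQ in KO, 1.44 ± 0.538 in R47H and 1.14 ± 0.204 in WT, with a difference of 0.41 in KO (adjusted p = 0.00196).

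Of the other 13 Frizzled and Wnt receptor genes only Fzd1 and Fzd5 reached the minimum level. Fzd1 averaged 3.03 ± 0.456 FPKQ in KO, 1.13 ± 0.204 in R47H and 0.686 ± 0.252 in WT. It passed the filter because of its KO level, so its differences of 1.26 in KO and 0.34 in R47H are given as values only, without a test. Its level was 4.41-fold that of WT in KO and 1.64-fold in R47H. Fzd5 had 1.85 FPKQ in KO, 2.07 in R47H and 2.07 in WT and did not pass. Of the 9 genes of the R-spondin axis only Znrf3, a ligase that removes Frizzled receptors, was tested, and it was 0.39 higher in KO (adjusted p = 0.000914). Of 14 inhibitor genes Dkk2 and Kremen1 were tested. Kremen1, a receptor for Dkk proteins, had 7.33 ± 0.759 FPKQ in KO, 6.07 ± 0.476 in R47H and 6.33 ± 0.560 in WT, with 0.18 in KO (adjusted p = 0.0195). Its adjusted p was 0.0584 without KO Rep2, 0.0779 without KO Rep5 and 0.291 against WT Rep1 to Rep5, where the difference was 0.09. Dkk2 had 1.21 FPKQ in KO, 1.85 in R47H and 1.52 in WT and did not pass in either mutant.

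Among 23 further destruction complex and cytosolic regulators that were tested, 6 rose and 2 fell in KO, beside 28.2% and 23.7% of all tested genes, with a median difference of -0.02. Csnk1e, another casein kinase of the pathway, had 29.8 ± 0.568 FPKQ in KO, 24.7 ± 2.38 in R47H and 21.8 ± 0.955 in WT (difference 0.44 in KO, adjusted p = 1.17e-07). The tankyrases Tnks2 and Tnks, which mark Axin for destruction, were 0.35 and 0.38 higher in KO (adjusted p = 2.03e-06 and 2.80e-05), whereas Ppp2r5d, a phosphatase subunit, was lower by a difference of -0.26 (adjusted p = 0.000380). In R47H 2 rose and 1 fell, beside 13.4% and 7.83% of all tested genes, and these were named after their values were seen, other than Csnk1e. Csnk1e was at 0.17 (adjusted p = 0.0125, and 0.0515 without R47H Rep5 and 0.0629 against WT Rep1 to Rep5). Csnk1d was at 0.10 (adjusted p = 0.0497), a call lost without any one R47H library but Rep5 or any one WT library but Rep10, where its adjusted p was 0.05002 to 0.158. Cul1 was at -0.15 (adjusted p = 0.0269, and 0.111 without R47H Rep2, 0.0562 without R47H Rep3 and 0.150 against WT Rep1 to Rep5).

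Of 17 nuclear cofactors that were tested, 5 rose and 7 fell in KO, beside 28.2% and 23.7% of all tested genes, with a median of -0.01. The co-repressor Tle1 had 6.64 ± 0.498 FPKQ in KO, 11.1 ± 1.73 in R47H and 13.7 ± 0.556 in WT, with differences of -0.94 in KO (adjusted p = 6.00e-11) and -0.29 in R47H (adjusted p = 0.00238). Bcl9, a co-activator that binds beta-catenin, was 0.48 higher in KO (adjusted p = 1.39e-06). Ctnnbip1, which blocks the binding of beta-catenin to TCF, was at -0.40 in KO (adjusted p = 0.000125). The co-repressor Tle3 was at 0.30 in KO (adjusted p = 0.00102). In R47H, where 13.4% of all tested genes rose and 7.83% fell, the one fall was Tle1 and the one rise was Crebbp, named after its values were seen, at 0.18 (adjusted p = 0.0319). The adjusted p of Crebbp was 0.0507 to 0.0906 without R47H Rep1, R47H Rep4, R47H Rep5, WT Rep2 or WT Rep10, and 0.130 against WT Rep1 to Rep5.

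**Figure D5:**
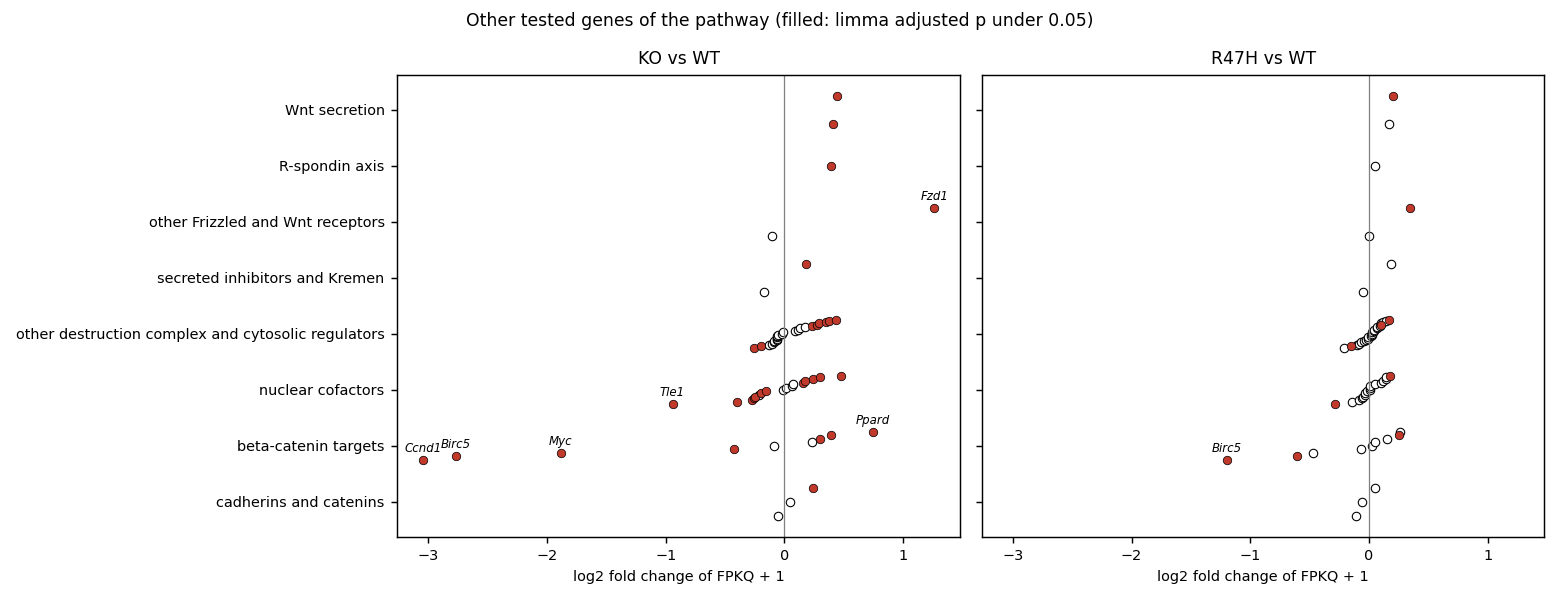
Difference on the log2(FPKQ + 1) scale for KO against WT and R47H against WT of the tested genes of each pathway list, one point a gene, with filled points for an adjusted p under 0.05. Points of the targets list reach -3.05 for Ccnd1 in KO, while those of the other lists lie between -0.94 and 1.26. The point at 1.26 is Fzd1 in KO. Fzd1 passed the filter because of its KO level, so the filling of its points in both panels is not read as a test.

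The target list held 24 genes that beta-catenin is known to activate in other cell types, and 9 were tested, of which 3 rose and 4 fell in KO and 1 rose and 2 fell in R47H. Of all tested genes 28.2% rose and 23.7% fell in KO, and 13.4% rose and 7.83% fell in R47H. The most used reporters of the pathway were near or at 0. Axin2 averaged 0.0717 FPKQ in KO, 0.0263 in R47H and 0.0119 in WT, and Tcf7 averaged 0.0822 FPKQ in KO, 0.0699 in R47H and 0.0280 in WT. Lef1 and Sp5 were listed at 0 in all 20 libraries, and Nkd1 and Lgr5 were each above 0 in 1 library only. Their levels are too low to read a change in pathway output.

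The targets that fell in KO were led by genes that also serve cell division. Ccnd1, cyclin D1, had 6.02 ± 1.36 FPKQ in KO, 36.9 ± 5.33 in R47H and 57.8 ± 15.1 in WT, with differences of -3.05 in KO (adjusted p = 1.30e-12) and -0.60 in R47H (adjusted p = 0.0101). The R47H difference was -0.26 against WT Rep1 to Rep5 (adjusted p = 0.159) and -0.94 against WT Rep6 to Rep10. Birc5, survivin, had 2.65 ± 0.843 FPKQ in KO, 10.1 ± 3.63 in R47H and 23.5 ± 3.04 in WT, with differences of -2.77 (adjusted p = 2.01e-12) and -1.20 (adjusted p = 5.67e-06). Myc had 3.09 ± 0.448 FPKQ in KO, 9.94 ± 1.49 in R47H and 15.0 ± 5.72 in WT, with -1.88 in KO (adjusted p = 6.85e-08) and -0.47 in R47H (adjusted p = 0.101). The R47H value of Myc depended on the control libraries. It was 0.00 against WT Rep1 to Rep5, which had 9.08 to 11.7 FPKQ (adjusted p = 0.994), and -0.94 against WT Rep6 to Rep10, which had 16.6 to 24.3 FPKQ (adjusted p = 2.37e-05). The other target that fell in KO was Jun, at -0.42 (adjusted p = 0.00198), and in R47H Jun was at 0.03 (adjusted p = 0.876, limma). In the same libraries all 8 genes of a cell division list, such as Mki67 and Top2a, fell in KO and in R47H, with medians of -1.92 and -1.13. Of all tested genes 23.7% fell in KO and 7.83% in R47H. The part of cell division in the target values was not tested.

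Ppard, a lipid-sensing nuclear receptor, went the other way, with 11.9 ± 0.923 FPKQ in KO, 8.13 ± 0.361 in R47H and 6.71 ± 1.12 in WT. It differed by 0.75 in KO (adjusted p = 1.59e-07) and by 0.26 in R47H (adjusted p = 0.0335, limma). The R47H value was 0.11 against WT Rep1 to Rep5 (adjusted p = 0.375) and 0.41 against WT Rep6 to Rep10, and its adjusted p was 0.0506 to 0.0698 without R47H Rep1, R47H Rep2, R47H Rep4, R47H Rep5, WT Rep2, WT Rep6, WT Rep7, WT Rep8 or WT Rep10. The other targets that rose in KO were Znrf3, also on the R-spondin list, at 0.39 (adjusted p = 0.000914), and Plaur at 0.30 (adjusted p = 0.0181, limma). The adjusted p of Plaur was 0.230 against WT Rep6 to Rep10 and 0.0640 without KO Rep5. In R47H neither Znrf3 (0.05, adjusted p = 0.741) nor Plaur (0.15, adjusted p = 0.331) passed.

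Of the adhesion genes that share beta-catenin with the pathway, 3 of 11 cadherin and catenin genes were tested. Ctnnd1, p120-catenin, was 0.24 higher in KO (adjusted p = 0.00274, and 0.120 with equal library sums, where the difference was 0.16). Ctnna1, which ties beta-catenin to actin, had 68.7 ± 5.51 FPKQ in KO, 68.4 ± 3.40 in R47H and 71.45 ± 4.38 in WT and did not pass in either mutant.

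Across the 20 libraries, the genes whose level followed Ctnnb1 most closely among 8233 with a mean of 5 FPKQ or more were Plek, Tpp1 and Tmem65. Their Pearson r with Ctnnb1 was 0.944, 0.942 and 0.940 on the log2 scale, and 0.652, 0.638 and 0.627 after each genotype was centred on its own mean. These r are descriptions, since the libraries share the genotype difference and each library's scale. Plek had 198 ± 19.95 FPKQ in KO, 139 ± 10.4 in R47H and 113 ± 8.02 in WT. Tpp1 had 213 ± 12.2 FPKQ in KO, 164 ± 8.36 in R47H and 142 ± 8.05 in WT, and Tmem65 had 73.8 ± 8.32 FPKQ in KO, 42.4 ± 4.19 in R47H and 33.8 ± 3.15 in WT.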

How the data were processed

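RNA of 20 macrophage libraries was sequenced as strand-specific poly-A libraries with paired reads of 75 bases, per the labels' protocols. The authors deposited 1 table a library with FPKQ, treated here as FPKM on the authors' own scale. The submitters' processing notes name RSEM and GRCm38, with no version or setting in the sources used here. Low values of single-transcript genes gave the size of a fragment, but only 86.0% to 89.8% of them a library were whole within 0.1 fragment, so no count test was run. RSEM can divide reads between paralogs.

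The members and lists were chosen with earlier results of these data known. Genes whose mean reached 1 FPKQ were tested on log2(FPKQ + 1), which understates changes of low genes, with limma 3.58.1 in R 4.3.3 (eBayes with trend) in 1 model of the 3 genotypes, adjusted by Benjamini-Hochberg over 10843 genes. The test was tried on simulated data. Paralog ratios were compared with exact permutation tests. Named were the 10 genes, Trem2, from each list up to 4 genes of smallest adjusted p, detected ligands, receptors and inhibitors, 8 preset targets and the 3 genes most like Ctnnb1. Marker lists for B cells, dendritic cells, endothelium, erythroid cells and mast cells each had 1 gene at or above 1 FPKQ. Coordinates and lengths came from GENCODE M21, which held 89.2% of the symbols. Alternatives covered the WT set, pseudocount, filter, scaling, weights, groups fitted, replicate block and each library left out. Other steps used scipy 1.17.1, pandas 2.3.3 and numpy 2.4.6 in Python 3.11.15.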

Additional observations from a re-analysis of the deposited data

Results flagged for a closer look

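In 3 of the 30 groups of values (10 genes in 3 genotypes) one library stood apart from the rest of its group by Dixon's criterion, which chance meets in about 1 group in 20. WT Rep9 had 169 FPKQ of Ctnnb1, and the other WT libraries had 144 to 153 FPKQ. R47H Rep2 had 4.35 FPKQ of Tcf7l2, and the other R47H libraries had 3.10 to 3.40 FPKQ. WT Rep1 had 13.2 FPKQ of Lrp5, and the other WT libraries had 8.93 to 10.6 FPKQ.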

How the results depend on the processing

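Of the fold changes of the 10 genes under all alternatives, 664 stayed on their side of the threshold, 55 lost the call and 8 gained one. None with a call reversed, but some without a call changed direction. For R47H against WT, Gsk3b ran from -0.14 to 0.12 and Gsk3a from -0.05 to 0.11. KO against WT: 2 genes were called lower with equal library sums and with library weights. R47H against WT: 1 gene was called higher against WT Rep1 to Rep5, with equal sums, with library weights and with the replicate block, and 2 were called lower with equal sums. R47H against KO: 0 genes were called higher with equal sums, the replicate block and without R47H Rep2 and Rep3, and 1 was with quantile normalization, only the 2 groups, library weights and the length index. Leaving out each library in turn gave 5 to 6 genes called higher in KO, 2 to 3 in R47H, and 0 to 2 called higher and 5 lower in R47H against KO. Equal sums moved the median of all genes in R47H to -0.07, against 0.04, and the share of calls that were higher to 20.6%, against 63.1% (48.6% with quantile normalization). In KO that share was 36.2%, against 54.3%. Relative to the shifted median with equal sums, Lrp6, Lrp5 and Ctnnb1 lay 0.38, 0.21 and 0.10 higher in R47H. Relative to the median after quantile normalization they lay 0.39, 0.23 and 0.03 higher, in the same order.

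The log2 ratio of Lrp6 to Lrp5 in R47H against WT was 0.22 against WT Rep1 to Rep5 (adjusted exact p = 0.0667), 0.15 against WT Rep6 to Rep10 (adjusted exact p = 0.105) and 0.14 to 0.23 without each library in turn. The r of deviations of same-numbered libraries ran from -0.152 to 0.216 for KO and WT, 0.0446 to 0.163 for R47H and WT and -0.120 to 0.309 for R47H and KO. In none was every pair over 0.1, and the labels tie no numbers, so the libraries were not taken as paired. Of the WT libraries only WT Rep1 to Rep5 entered this check, so a pairing of either mutant with WT Rep6 to Rep10 was not tested. With the replicate block, which uses WT Rep1 to Rep5, 1313 genes were called in R47H against WT. In that fit the adjusted p was 0.351 for Lrp5, 0.0787 for Ctnnb1 and 0.173 for Csnk1e. The blocked log2 ratios were 0.48 for Gsk3b to Gsk3a and 0.61 for Lrp6 to Lrp5 in KO, 0.22 for Lrp6 to Lrp5 in R47H (adjusted exact p = 0.225), and -0.64 and -0.40 in R47H against KO. The other 4 had an adjusted exact p of 0.0938, and 5 pairs cannot go below 0.0625 before adjustment. Which cause lies behind each changed call was not tested. Depth limits Tcf7l2 and the genes under 1 FPKQ most.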

Other observations

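Ctnnd2, delta-catenin, chosen after its values were seen, averaged 0.379 ± 0.128 FPKQ in KO, 0.571 ± 0.243 in R47H and 1.37 ± 0.334 in WT libraries (SD, n = 5, 5 and 10), and its mean over all libraries was under the minimum level for testing. In WT macrophages Lrp6 and Lrp5 had nearly the same level, at 9.85 and 10.2 FPKQ, and in KO macrophages Lrp6 averaged 25.3 ± 2.65 FPKQ and Lrp5 17.4 ± 1.17 FPKQ.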
